A study of Mus musculus with 2 samples.

Results

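The MAP kinase genes described here are *Mapk3*, *Mapk7*, *Mapk8*, *Mapk9*, *Mapk10*, *Mapk11*, *Mapk12*, *Mapk13* and *Mapk14*, measured in the mouse kidney. They were chosen by gene name: every gene probe of the arrays that carries one of these 9 names was kept, which gave 15 of 39416 probes and 9 of 31821 gene names. *Mapk8* holds 3 of these probes and was chosen because its probes were already known to differ in these data. The values that chose it are therefore given as a description, with no test. The knockout mice were *Cnnm2* fl/fl;*Six2-Cre* and the controls *Cnnm2* +/+;*Six2-Cre*, all aged 2 months, and RNA of their dissected kidneys shared each of 2 arrays. Array 1 had the knockout in Cy5 and the control in Cy3, and array 2 had the dyes the other way round. Both genotypes carry *Six2-Cre*, a Cre driven from the *Six2* promoter of nephron progenitors. In the fl/fl mice, recombination is therefore expected in tubules and glomerular epithelium and not in vessels, stroma, leukocytes or the collecting duct. The number of mice behind each RNA is not given in the sources used here.

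MAP kinases are the last kinases of signaling chains in which a MAP3K activates a MAP2K, and the MAP2K phosphorylates the MAP kinase on a threonine and a tyrosine of its activation loop. The ERK branch is known for relaying growth factor signals, whereas the JNK and p38 branches respond to cytokines, osmotic stress and other cell stress. In the kidney these kinases have been studied in tubular growth, in adaptation to the high osmolality of the medulla and in injury. Since they are switched on by phosphorylation, an array reports the abundance of their mRNA and not their activity.

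Each value below is a log2 ratio of knockout over control, taken from the processed signals of the scanner software, and means are those of arrays 1 and 2. The ± value is the SD of the 2 arrays. Since the same RNA was taken to be on both arrays, which no source states, each genotype was counted as 1 sample. The SD then covers labeling and hybridization, not differences between mice, and no p between the genotypes is given. The t-test of the study's methods, which takes the arrays as replicates, entered only as another way of counting probes. A probe was tested, meaning that it entered the counts, where at least 1 genotype was well above background on array 1 and on array 2 (24594 probes). It was called where the mean log2 ratio was at least 1 in size, which is 2-fold, and had the same sign on both arrays. *Cnnm2* itself, the gene deleted in the knockout, had ratios of -2.88 and -2.46 on arrays 1 and 2 (-2.67 ± 0.30), so the dye labels gave the direction of its loss on both arrays. In whole kidney RNA, fewer cells of a type and less RNA per cell cannot be told apart. All 9 probes of 8 kidney marker genes, among them *Umod* and *Slc34a1*, were well above background, with mean log2 ratios from -0.32 to 0.17.

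Of the 15 MAP kinase probes, 14 were well above background in all 4 channels and were tested. A single probe was called, a *Mapk8* probe that was lower in the knockout, and 0 were higher. Among all tested probes, 0.26% were called lower (64 probes) and 0.313% higher (77 probes). The rule chose *Mapk8* on this contrast, so nothing is read from the share. The median of the 14 mean ratios was 0.03, beside -0.0029 over all tested probes. Of the 14 probes, 3 had the same sign on both arrays, which is no more than the share over all tested probes (27.0%). These 3 were all lower and all in JNK genes, and they include probes of *Mapk8*, the gene chosen on this contrast. For the same 3 probes, both knockout channels lay below both control channels. Over all tested probes, 11.4% had knockout and control channels that did not overlap in either direction.

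**Figure D1:**
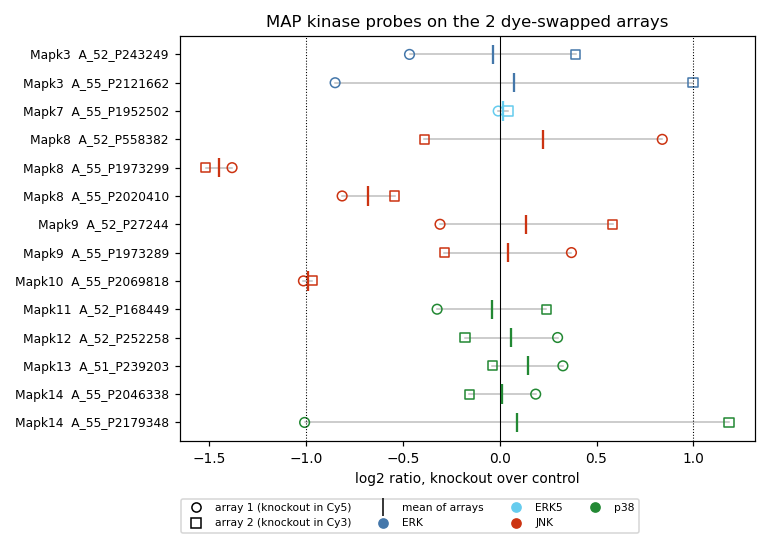
Log2 ratio of knockout over control (x axis) of the 14 tested MAP kinase probes (y axis), with array 1 as circles, array 2 as squares, the mean as a bar and dotted lines at the 2-fold limits. The *Mapk8* probes A_55_P1973299 and A_55_P2020410 and the *Mapk10* probe A_55_P2069818 were below 0 on both arrays, and the other 11 probes lay on both sides of 0.

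The JNK genes *Mapk8* (JNK1), *Mapk9* (JNK2) and *Mapk10* (JNK3) encode the kinases that phosphorylate c-Jun, and *Mapk8* is the one with 3 probes. Each is 60 bases long and printed as 1 spot per array. On the mm9 build the probes lie on the minus strand of chromosome 14, at chr14:34200386-34200445 (A_55_P2020410), chr14:34195274-34195333 (A_55_P1973299) and chr14:34191681-34191740 (A_52_P558382). Read in the direction of transcription, A_55_P1973299 starts 5112 genomic bases and A_52_P558382 8705 genomic bases downstream of A_55_P2020410. The exon or UTR that holds each probe was not assigned, because no annotation of this build was used here. The sequences show that the probes sample separate stretches of the gene and are given as designed, 5′ to 3′, with the whole probe for A_55_P2020410 and bases 1 to 30 for the others.
A_55_P2020410: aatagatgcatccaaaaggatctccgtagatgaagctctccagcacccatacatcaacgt
A_55_P1973299: ggatggggaattggttagtcattgatagaa
A_52_P558382: ctgagtgtaaattataaatgtgcgttgaat
Over their whole length, A_55_P2020410 and A_55_P1973299 each have 1 of 3 forward frames free of stop codons, and A_52_P558382 has 0. The GC content is 45% in A_55_P2020410 and 35% in both of the others.

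All 3 probes are annotated to the same RefSeq transcript, NM_016700. The files list at most 4 accessions per probe, so an accession that is missing from a probe's list says nothing about that transcript. Of the 8 accessions listed over the 3 probes, ENSMUST00000022504 is given for A_55_P1973299 and A_55_P2020410, and ENSMUST00000111945 for A_55_P1973299 and A_52_P558382. The other 5 besides NM_016700 are each given for 1 probe. No listed accession is shared by A_52_P558382 and A_55_P2020410 alone. In RefSeq's table for GRCm38.p6, *Mapk8* has 4 curated and 3 predicted transcripts.

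The probe A_55_P1973299 had processed signals of 20.3 in the knockout and 52.9 in the control on array 1, and of 29.5 and 84.4 on array 2. Both knockout channels were lower than both control channels, whichever dye they carried. The ratios were -1.38 and -1.52, with a mean of -1.45 ± 0.10, so the knockout signal was 36.6% of the control signal. Among all 24594 tested probes, 26 had a lower mean ratio (0.106%).

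The probe A_55_P2020410, upstream of it, read 15.7 in the knockout and 27.5 in the control on array 1, and 21.3 and 31.1 on array 2. The knockout was again lower in both dyes, by a smaller amount. Its ratios of -0.81 and -0.54 gave a mean of -0.68 ± 0.19, or 62.5% of the control signal, which is inside the 2-fold limit. There were 220 tested probes with a lower mean (0.895%).

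The probe A_52_P558382, the farthest downstream, read 49.1 in the knockout and 27.5 in the control on array 1, and 39.0 and 51.1 on array 2. On each array the channel with Cy5 was the higher one, so the sign turned with the dye. The ratios were 0.84 and -0.39, and the mean of 0.22 ± 0.87 was smaller than the spread of the arrays.

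The 3 probes were then compared on the same array. The ratio of A_52_P558382 exceeded that of A_55_P1973299 by 2.22 on array 1 and 1.13 on array 2, a mean difference of 1.67 ± 0.77. Between A_52_P558382 and A_55_P2020410 the difference was 1.65 and 0.15, with a mean of 0.90 ± 1.06 that did not exceed the spread of the arrays. The 2 lowered probes also differed from each other. The ratio of A_55_P1973299 was below that of A_55_P2020410 by -0.57 and -0.97, a mean of -0.77 ± 0.29. Along the gene the mean ratios were therefore -0.68, -1.45 and 0.22 from the upstream to the downstream probe, with no steady trend. Among the 4101 gene names with at least 2 tested probes, 0.439% (18) held a pair of probes that differed at least 2-fold in the mean and the same way on both arrays. Among the 556 gene names with exactly 3 tested probes, 0.36% (2) did, and *Mapk8* is 1 of them. It was chosen because its probes differ, so nothing is read from its place among them.

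**Figure D2:**
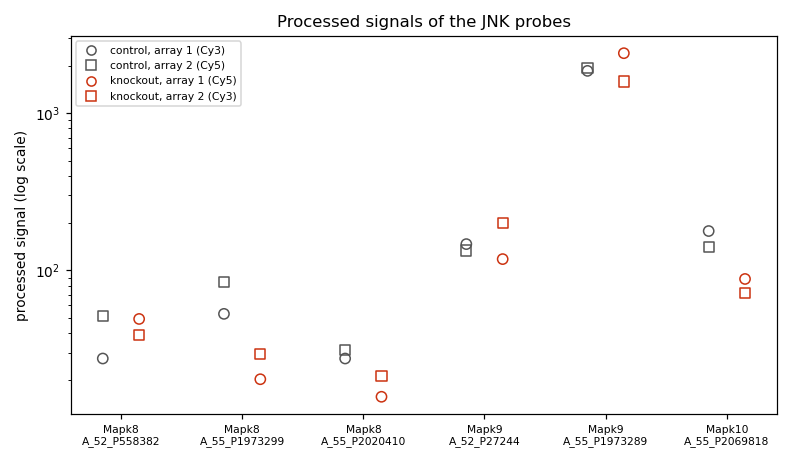
Processed signal (log scale) of the 6 tested JNK probes, with control in grey, knockout in red, array 1 as circles and array 2 as squares. Knockout and control points did not overlap for A_55_P1973299, A_55_P2020410 and the *Mapk10* probe A_55_P2069818. Heights of different probes are not comparable, since probes bind with different strength.

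All of the *Mapk8* probes were dim. Before background subtraction, A_55_P1973299 read 79.1 (knockout) and 97.2 (control) on array 1 over local backgrounds of 39 and 33, and 92.3 and 196.1 on array 2 over 33 and 39. The brightest of its channels was 5.03 times the local background and the dimmest 2.03 times. For A_55_P2020410 the signal was 1.76 to 2.85 times the local background, and in array 2 the unsubtracted signal stood 2.85 times over background in the knockout and 2.28 times in the control. For A_52_P558382 the range was 2.39 to 3.02 times. On the same measure the *Mapk10* probe A_55_P2070529, well above background in no channel, ran from 1.21 to 2.01 times. That range overlaps the one of A_55_P2020410. Of the 2462 tested probes whose mean log2 signal lay within 0.5 of that of A_55_P1973299, 3 had a lower mean ratio, and 0.203% (5) were called lower and 0.65% (16) higher. The central 95% of these 2462 mean ratios ran from -0.46 to 0.57. The mean log2 signal of A_55_P2020410 (4.53) lies below this range of signals, and A_55_P1973299 was chosen for its ratio, so its place among these probes is a description. Repeated spots give the precision within an array. For 16 probes of this signal range printed at least 5 times, the median SD of the spots was 0.156 on array 1 and 0.136 on array 2, and the highest was 0.33.

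The *Mapk8* ratios depended on how background was treated. The background-subtracted signals of the scanner software gave A_55_P1973299 a mean of -1.44 when the array was centred on the median and -1.43 with loess. They are called subtraction below and were not recomputed from the local backgrounds given above. Without background correction the mean was -0.75 with centring and -0.63 with loess, and after normexp correction with an offset of 50 it was -0.44 and -0.22. Background left in, or an offset added to both channels, moves the ratio of a dim probe toward 0 before normalization. The offset of 50 is within the range of this probe's processed signals (20.3 to 84.4), so smaller ratios were built into these settings. This probe was below 0 on each array in all of these settings. For A_55_P2020410 the means were -0.67 and -0.67 with subtraction, -0.30 and -0.25 without correction, and -0.35 and -0.08 after normexp, in the same order. With centring, its array 2 ratio was 0.01 both without correction and after normexp, so its sign then differed between the arrays. No MAP kinase probe was called without background correction or after normexp, under either normalization. The pairing of each correction with the second normalization was added after the data were seen. The difference between A_52_P558382 and A_55_P1973299 was 1.69 with subtraction and centring, and with loess it was 0.72 without correction and 0.26 after normexp.

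**Figure D3:**
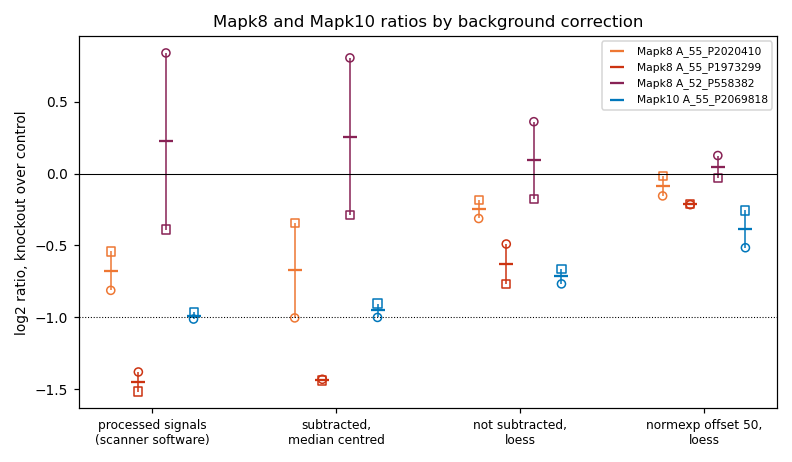
Log2 ratio of knockout over control of the 3 *Mapk8* probes and the tested *Mapk10* probe under 4 ways of correcting background, with array 1 as circles, array 2 as squares and the mean as a dash. The dotted line marks 2-fold lower. The order of the *Mapk8* means was the same in all 4, and their distance from 0 shrank without subtraction and with normexp.

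*Mapk10* encodes JNK3, the JNK best known from neurons, and has a pair of probes on the minus strand of chromosome 5. A_55_P2069818, at chr5:103341389-103341448 and annotated to transcript variant 1, begins with the bases printed below.
A_55_P2069818: ctctcagacccttgaagatgtagcttccga
It read 88.2 in the knockout and 178 in the control on array 1, and 71.9 and 141 on array 2. Both knockout channels were again below both control channels. The ratios of -1.01 and -0.97 gave -0.99 ± 0.03, or 50.4% of the control signal. This MAP kinase probe came nearest to the limit of a call without reaching it. In all, 79 tested probes had a lower mean (0.321%). Its unsubtracted signal was 4.08 to 7.04 times the local background. With loess its mean was -0.72 without background correction and -0.39 after normexp, and with centring -0.71 and -0.26. The second probe, A_55_P2070529 at chr5:103355103-103355162 and annotated to variant 2, was not well above background in any channel, with processed signals of 2.07 to 5.25, and no ratio is given for it. Whether the *Mapk10* probes differ was therefore not measurable here.

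*Mapk9*, which encodes JNK2, is measured by a pair of probes on the plus strand of chromosome 11. A_52_P27244 (chr11:49677113-49677172, annotated to the alpha2 transcript) read 118 and 147 in knockout and control on array 1, and 200 and 134 on array 2. A_55_P1973289 (chr11:49699496-49699555, annotated to alpha1) read 2410 and 1860, and 1590 and 1940. Each probe changed sign with the dye, and the probes did so in opposite directions. The ratios were -0.31 and 0.58 for the former (0.14 ± 0.63) and 0.37 and -0.29 for the latter (0.04 ± 0.46). The difference between the probes was 0.68 on array 1 and -0.87 on array 2, so a comparison on 1 array alone would have given a transcript difference of either sign.

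*Mapk3* encodes ERK1, and both of its probes are on the plus strand of chromosome 7. A_52_P243249 (chr7:133908973-133909032) read 2570 in the knockout and 3540 in the control on array 1, and 3040 and 2320 on array 2. A_55_P2121662 (chr7:133908255-133908314) read 641 and 1150, and 1280 and 639. The Cy3 channel was the higher one on both arrays for both probes. Their ratios of -0.47 and 0.39, and of -0.85 and 0.998, averaged to -0.04 ± 0.61 and 0.07 ± 1.31. *Mapk7*, which encodes the large MAP kinase ERK5, had the steadiest probe of the set around 0. A_55_P1952502 (chr11:61302374-61302433, minus strand) read 1300 and 1310, and 1060 and 1030, for a mean of 0.02 ± 0.04.

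The p38 kinases, targets of MKK3 and MKK6, are encoded by *Mapk14* (p38 alpha), *Mapk11* (beta), *Mapk12* (gamma) and *Mapk13* (delta). None of their 5 probes had the same sign on both arrays, beside 27.0% of all tested probes. The mean ratios lay between -0.04 and 0.14. *Mapk14* was read by a bright probe, A_55_P2046338 (chr17:28885290-28885349), with 8540 and 7510 in knockout and control on array 1 and 5850 and 6530 on array 2. Its ratios were 0.19 and -0.16. The dim *Mapk14* probe A_55_P2179348 (chr17:28873965-28874024) read 41.2 and 82.7, and 108 and 47.4. It had the widest swing of the 14 probes, from -1.01 to 1.18, and a mean of 0.09 ± 1.55. On array 1 alone this probe would have passed the 2-fold limit as lower, and on array 2 alone as higher. Like the *Mapk8* probe A_55_P1973299 it was dim. The *Mapk8* probe, which was chosen for its ratio, had the same sign on both arrays.

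*Mapk13* lies next to *Mapk14* on the same strand of chromosome 17, and A_51_P239203 (chr17:28915417-28915476) read 1830 and 1460 on array 1 and 1420 and 1460 on array 2 (0.14 ± 0.26). *Mapk11* and *Mapk12* are likewise neighbors, on the minus strand of chromosome 15. A_52_P168449 of *Mapk11* (chr15:88973159-88973218) read 150 and 188, and 182 and 154, a mean of -0.04 ± 0.40. A_52_P252258 of *Mapk12* (chr15:88961267-88961326) read 805 and 654, and 672 and 761, a mean of 0.06 ± 0.34.

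The sign changes of the MAP kinase probes were shared by the arrays as a whole. Over all tested probes, the ratios of array 1 and array 2, both turned to knockout over control, had a Pearson correlation of -0.55 and a Spearman correlation of -0.59, a description over probes that share both hybridizations. A dye effect has opposite signs on the 2 arrays and cancels in their mean. The mean ratio had an SD of 0.23 over probes, and the part that turns with the dye, which is the difference of the arrays divided by 2, had an SD of 0.42. Over the 14 MAP kinase probes this dye part had a Spearman correlation of -0.57 with the GC content of the probe, and over all tested probes the value was -0.24. The Spearman correlation of the mean ratio with GC content was 0.17 over the MAP kinase probes and -0.0044 over all tested probes. Whether base composition plays a part in these values was not tested.

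**Figure D4:**
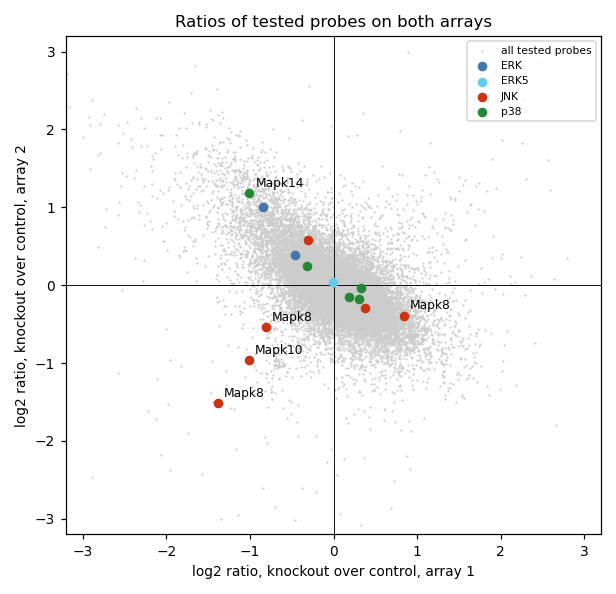
Log2 ratio of knockout over control on array 1 (x axis) and array 2 (y axis) for all tested probes (grey) and the 14 MAP kinase probes (colored by branch); 24 tested probes lie outside the plotted range. The grey cloud and 11 of the MAP kinase probes run along the falling diagonal, and the 3 JNK probes that were lower on both arrays lie at the lower left.

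The rest of the pathway was described from 7 lists holding 79 genes, of which 72 had a tested probe (111 probes). None of these probes was called in either direction, beside 0.26% lower and 0.313% higher over all tested probes, and 28 of 111 had the same sign on both arrays, beside 27.0%. Both counts are near the share of the whole array. Their median ratio was -0.02, with a range from -0.54 to 0.44.

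Among the other MAP kinases, 0 of 11 probes were called. The lowest probe of this list was *Mapk6* A_51_P479808 (-0.33 and -0.10) and the highest was *Mapk15* (0.03 and 0.68). Of the 10 MAP2K probes, 0 were called and the median was 0.10. *Map2k7*, which encodes the JNK activator MKK7, was the highest (-0.11 and 0.60), and *Map2k3*, which encodes the p38 activator MKK3, was the lowest (-0.92 and 0.83). *Map2k4* encodes MKK4, the other JNK activator, and its probes had means of 0.10 and 0.14.

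The MAP3K list had 27 tested probes with 0 called, from -0.36 for *Map3k10* A_55_P2104562, a mixed lineage kinase of the JNK branch (-0.10 and -0.62), to 0.20 for *Map3k6* A_51_P170807 (-0.01 and 0.42). The MAP kinase phosphatases had 13 tested probes. In 0 of them did the arrays have the same sign, beside 27.0% of all tested probes. *Dusp1*, a phosphatase induced by stress and growth factors, was the highest with 0.80 and -0.07, and *Dusp9* was the lowest with -0.52 and 0.22.

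The JNK scaffolds hold JNK together with its activators. Their 13 tested probes had a median of -0.12, the lowest of the 7 lists, and 0 were called. *Mapk8ip2* (JIP2) was the lowest with -0.23 and -0.56, and *Crk* A_55_P2173014 was the highest with -0.45 and 1.32. The *Mapk8ip3* (JIP3) probe A_55_P2085751 swung from -2.19 on array 1 to 1.53 on array 2, a dye swing wider than that of any of the 14 MAP kinase probes.

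The downstream kinases had 12 tested probes with 0 called, from *Mapkapk3* (-0.32 and -0.03) to *Rps6ka3* A_55_P1952981 (0.53 and 0.06). The transcription factor substrates had 25 tested probes with 0 called. *Jun*, which encodes the substrate that names the JNK kinases, had 0.03 and 0.41 (mean 0.22). *Atf2* A_55_P2175550 was the lowest of this list with -2.48 and 1.41, and *Mef2a* A_65_P08239 the highest with 1.56 and -1.05, so both extremes had ratios of opposite sign.

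**Figure D5:**
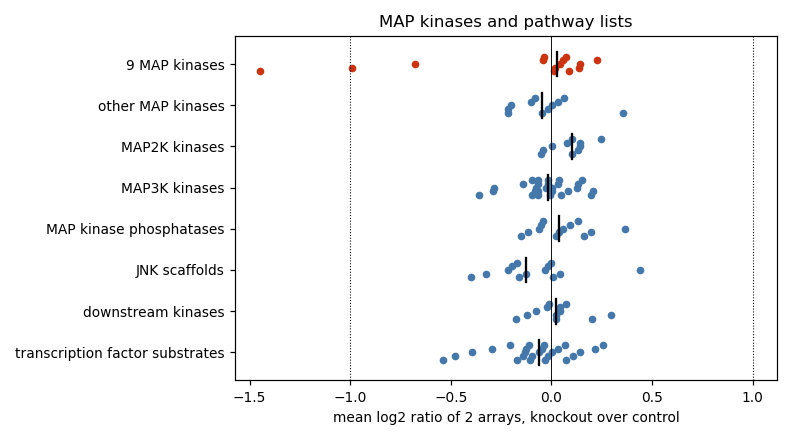
Mean log2 ratio of knockout over control (x axis) of each tested probe of the 9 MAP kinases (red) and of the 7 pathway lists (blue), with a black bar at each median and dotted lines at the 2-fold limits. The only point past a limit is the *Mapk8* probe A_55_P1973299, and all pathway list points lie between -0.54 and 0.44.

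Markers of other cells that a dissected kidney could hold gave 9 tested probes. Of these, 0 were called, beside 0.26% lower and 0.313% higher over all tested probes. In 3 of the 9 the arrays had the same sign, beside 27.0% of all tested probes. Nothing is read from these counts. The urothelial genes *Upk1b* (1.13 and 0.61) and *Upk3a* (0.52 and 0.76) were higher in the knockout on both arrays. For red cells, *Hbb-b1* (-0.29 and -0.13) was lower on both, and *Alas2* (-0.58 and 0.17) changed sign between the arrays. Of the adrenal cortex genes, *Cyp11b1* was not tested because its signal was too low, and *Star* A_52_P165654 had 0.60 and -1.59, the lowest mean of these markers (-0.50). The leukocyte markers *Ptprc*, *Cd68* and *Cd3e* had means from -0.06 to 0.13. The part of these cells in the MAP kinase values was not tested.

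To find probes with a pattern like that of *Mapk8* A_55_P1973299, its pair of ratios was set against 23571 probes of other genes with a signal well above background in all 4 channels. The 5 nearest by Euclidean distance over the 2 arrays belonged to *Trpm6*, which encodes a magnesium channel of the distal convoluted tubule (-1.23 and -1.58), the pseudogene *Olfr1372-ps1* (-1.29 and -1.10), *Cmya5* (-0.88 and -1.41), an immunoglobulin kappa V segment (-1.74 and -1.89) and *Notch1* A_55_P2171897 (-0.86 and -1.45). The distances ran from 0.158 for *Trpm6* to 0.527 for *Notch1*. With 2 arrays, likeness means no more than a similar size of ratio on both. *Arhgap22*, the protein-coding neighbor of *Mapk8* before it on the chromosome, had -0.37 and 0.13.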

How the data were processed

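Whole-kidney RNA of both genotypes was compared on 2 Agilent 4x44K v2 arrays with exchanged dyes. Per the file headers, the scans were read with Agilent Feature Extraction 10.7.3.1, whereas the submitters' processing notes name 10.5.1.1. The authors deposited for each spot the mean intensity, its local background and a processed intensity that the software had corrected for background and dye. A log10 ratio of red over green was deposited with them, and a separate matrix deposited by the authors holds log10 ratios, which lay within 0.00492 (array 1) and 0.00483 (array 2) of the scanner ratios and run as knockout over control, with medians of 0.

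Here, processed intensities were turned to log2 knockout over control by the dye labels, using 43020 gene spots per array. Marked spots were left out (141 and 175, of which 0 were on MAP kinase probes), 0 were saturated, and spots of a probe were averaged. Between 62.6% and 68.0% of spots were well above background. Precision is limited by there being 2 arrays. Positions are those of the files (mm9). The RefSeq table of GRCm38.p6 was used for names and neighbors, and the accessions of all 15 probes matched their gene there.

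The members and lists were chosen with earlier results of these data known. Named were all probes of the 9 genes, the highest and lowest probe of each pathway list, *Cnnm2*, and the 5 probes nearest to the lowest *Mapk8* probe. Single probes named beyond that (such as those of *Map2k4*, *Mapk8ip3* A_55_P2085751, *Jun*, *Arhgap22* and markers) were picked after their values were seen. Alternatives were other background corrections and normalizations (limma 3.58.1, R 4.3.3), other sources of the ratio, marked spots kept, each array alone, other limits on signal and other rules of a call. The code (Python 3.11.15, numpy 2.4.6, pandas 2.3.3) was tested on simulated data.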

Additional observations from a re-analysis of the deposited data

How the results depend on the processing

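For *Mapk8* A_55_P1973299 (-1.45), normexp gave -0.22 with loess and -0.44 with median centring, and uncorrected signals gave -0.63 and -0.75. For A_55_P2020410 (-0.68) the values were -0.0849, -0.35, -0.25 and -0.30 in the same order. With subtraction, both normalizations stayed within the SD of the arrays of the reported values. A_52_P558382 (0.22) ran from -0.08 (normexp with centring) to 0.26 over the background and normalization settings, and had 0.84 and -0.39 on single arrays. Centring of the uncorrected and of the normexp signals, and subtraction with loess, were added after seeing the data. The scanner ratios and marked spots repeat the same values for the MAP kinase probes and test nothing, and a single array cannot leave the SD of both. *Mapk10* A_55_P2069818 (-0.99) gave -0.95, -0.71 and -0.26 with subtraction, without correction and with normexp under centring. Under loess it gave -0.97, -0.72 and -0.39 in the same order. Of 14 levels, 6 moved by more than the spread of the channels with background-subtracted signals.

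The counts of probes called higher and lower over the arrays (77 and 64) became 12 and 9 after normexp correction, 17 and 13 for uncorrected signals under loess, 1348 and 936 on array 1 alone, 944 and 1055 on array 2 alone, 290 and 222 with no limit on signal, 43 and 30 with both genotypes above background, 35 and 24 with 2-fold required on each array, and 28 and 19 with the methods' t-test, which left 0 and 0 after Benjamini-Hochberg adjustment. The contrast between the dyes, added after seeing the data, had 189 and 597, where higher and lower refer to the dyes and not to the genotypes. The pathway lists had 0 called probes in each setting run for them. Every ratio pairs the genotypes within an array.

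With 1 spot per probe, 2 arrays and signals a few times the local background, the *Mapk8* ratios have no replicate over mice. The exon of each probe and the transcripts it detects were not determined, so a difference between probes is not a measured difference between transcripts.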
